A study of Mus musculus with 32 samples.

Results

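Migratory dendritic cells of the CD11b-positive branch (migDC2) were compared with resident conventional dendritic cells of the same branch (cDC2) by their accessible chromatin. The members are the 12 peak lists of the floxed cohort whose cell type label is migDC2 (6 lists) or cDC2 (6 lists), out of 32 lists in the series. All 12 libraries came from cells sorted from skin-draining lymph nodes of mice carrying floxed Ifngr1 alleles, and were made by Omni-ATAC-seq, in which the transposase Tn5 cuts open chromatin and tags it for sequencing. Each subset had 3 libraries from CD11cCREpos/IFNgr1flfl mice, labelled Ifngr1 KO and called Cre-positive here, and 3 from CD11cCREneg/IFNgr1flfl mice, labelled Ifngr1 WT and called Cre-negative here. Cre is driven by the promoter of CD11c, the integrin gene Itgax, so recombination depends on CD11c activity and both subsets carry the floxed alleles in both genotypes. The sources used here give neither the ages of the mice nor the gates of the sort. Nothing in the labels says that libraries came from separate mice, so p-values measure the spread between these libraries, which may be technical. The 4 germline migDC2 libraries entered no test. The series was designed to ask how signalling through the interferon-γ (IFN-γ) receptor bears on dendritic cell chromatin, and it sorted resident and migratory subsets side by side.

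Dendritic cells take up antigen in tissues and show it to T cells. Cells of the skin that sense damage or microbes, or that mature at steady state, switch on the chemokine receptor CCR7 and travel through lymph vessels into the draining node, whereas resident cells reach the node from blood and stay there in a less mature state. Maturation is known to raise costimulatory molecules, T cell attracting chemokines and cytoskeletal genes, to bring already loaded MHC class II to the surface, and to reduce antigen uptake.

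Each list was cut to its 38455 strongest peaks, the number in the shortest of the 12 lists, so that all lists have equal length. A region is a stretch covered by kept peaks of at least 3 of the 12 libraries, and it is called in a library when a kept peak overlaps it. Where a region was called in all 12 libraries, the signal percentile of its peak was used instead, on a scale where 100 is the strongest kept peak of that library. The covered length of a gene is the number of kilobases covered by kept peaks within the gene and 20 kb on either side. It is not a level of expression, and windows of neighbouring genes share peaks. In such bulk libraries, fewer cells with an open site and less opening per cell cannot be told apart.

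Most regions that could be tested, and most that changed, lay away from gene starts, and 6 start windows show some of the changed starts. The first 3 belong to starts called in 6 of 6 migDC2 and 0 of 6 cDC2 libraries, and the last 3 to starts called in 0 of 6 migDC2 and 6 of 6 cDC2 libraries. The genes were picked after their values were seen, to include 1 apolipoprotein L gene, 1 chemokine, 1 interferon-inducible gene, 2 cDC2 markers and 1 regulator of MHC class II. Each sequence is the 250 bases before an annotated start, from RefSeq on GRCm38.p6 (the mm10 coordinates of the files), written 5′ to 3′ on the gene's strand. Capitals mark matches on either strand to any of 6 short motifs, GGG and CC with 5 free bases between them (bound by NF-κB), TGANTCA (AP-1), GAAA repeated after 2 free bases (IRF), CGGAAG (ETS), GAGGAAG (PU.1) and TGTGGT (RUNX).
Apol7c, chr15:77533316-77533565, minus strand: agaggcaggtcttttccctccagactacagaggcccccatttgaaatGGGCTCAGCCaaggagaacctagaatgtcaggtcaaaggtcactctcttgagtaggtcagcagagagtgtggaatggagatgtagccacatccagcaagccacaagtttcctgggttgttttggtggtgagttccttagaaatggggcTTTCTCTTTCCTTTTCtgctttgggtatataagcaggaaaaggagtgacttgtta
Cxcl1, chr5:90890995-90891244, plus strand: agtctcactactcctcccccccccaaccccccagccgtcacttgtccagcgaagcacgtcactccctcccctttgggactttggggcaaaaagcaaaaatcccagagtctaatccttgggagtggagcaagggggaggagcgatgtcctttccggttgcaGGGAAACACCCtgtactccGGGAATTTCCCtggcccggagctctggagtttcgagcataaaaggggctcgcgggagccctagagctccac
Ifi205, chr1:174031756-174032005, minus strand: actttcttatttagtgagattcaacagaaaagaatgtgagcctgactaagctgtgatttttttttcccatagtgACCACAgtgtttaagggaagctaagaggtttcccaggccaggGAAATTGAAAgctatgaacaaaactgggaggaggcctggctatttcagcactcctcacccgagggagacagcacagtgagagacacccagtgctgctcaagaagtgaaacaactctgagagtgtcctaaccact
Itgam, chr7:128062390-128062639, plus strand: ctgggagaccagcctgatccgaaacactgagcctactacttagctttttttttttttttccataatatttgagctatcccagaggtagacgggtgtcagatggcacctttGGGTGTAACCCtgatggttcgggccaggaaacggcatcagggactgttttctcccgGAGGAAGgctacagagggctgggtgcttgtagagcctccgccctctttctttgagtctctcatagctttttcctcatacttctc
Cd209a, chr8:3748985-3749234, minus strand: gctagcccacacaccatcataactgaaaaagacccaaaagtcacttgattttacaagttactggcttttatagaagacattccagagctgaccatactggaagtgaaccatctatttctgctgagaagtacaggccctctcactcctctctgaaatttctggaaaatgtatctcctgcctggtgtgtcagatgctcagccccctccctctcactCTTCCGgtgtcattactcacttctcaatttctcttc
Marchf1, chr8:66386051-66386300, plus strand: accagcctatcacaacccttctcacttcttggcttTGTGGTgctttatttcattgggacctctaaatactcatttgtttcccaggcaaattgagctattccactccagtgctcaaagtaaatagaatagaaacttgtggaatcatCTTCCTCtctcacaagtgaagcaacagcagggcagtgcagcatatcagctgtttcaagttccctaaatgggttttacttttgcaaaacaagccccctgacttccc

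The window of Cxcl1, which encodes a neutrophil-attracting chemokine, held overlapping NF-κB motif matches in 2 places, and its start region had a signal percentile of 69.8, 73.8 and 80.9 (lowest, median and highest) in migDC2 and no kept peak in cDC2. At Apol7c, a member of the apolipoprotein L family, the window held 2 IRF matches and 1 NF-κB match, and the percentiles were 44.1, 50.97 and 57.0 in migDC2, again with no kept peak in cDC2. Ifi205, an interferon-inducible gene of the PYHIN family, had 1 IRF and 1 RUNX match and percentiles of 12.9, 29.7 and 48.6 in migDC2. Its start opened while the covered length of its whole window was shorter, with 1.31, 1.49 and 1.67 kb in migDC2 and 1.69, 2.28 and 2.89 kb in cDC2.
On the other side, the start of Itgam, the gene of CD11b, had percentiles of 36.8, 43.1 and 75.7 in cDC2 and no kept peak in migDC2. Cd209a, a C-type lectin gene often used to mark cDC2, had percentiles of 14.5, 20.7 and 28.6 in cDC2 only among these 12 libraries. For Marchf1, a ubiquitin ligase that removes MHC class II and CD86 from the surface, the window belongs to an alternative start, with percentiles of 14.0, 22.6 and 29.3 in cDC2 and no kept peak in migDC2. A motif match is a run of letters and not a measured binding site.

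The deposited lists of migDC2 were longer, with 54704, 62377.5 and 74361 peaks (lowest, median and highest), than those of cDC2, with 38571, 46846.5 and 56236 peaks. Mean lengths were 63193 ± 6334 peaks in migDC2 and 47247 ± 7568 peaks in cDC2 (SD, n = 6 each; exact permutation within genotype, p = 0.01, adjusted p = 0.04 over 4 measures). At equal length, the kept peaks covered 38.0 ± 3.15 Mb in migDC2 and 35.8 ± 4.01 Mb in cDC2 (exact permutation, p = 0.365), their median width was 817.5 ± 63.0 bp and 741 ± 86.6 bp (p = 0.135), and 24.4 ± 0.363% and 24.9 ± 0.172% of them lay at gene starts (p = 0.03, adjusted p = 0.06; SD, n = 6 each). The share at gene starts overlapped between the subsets. The lists hold no read counts, so the depth of the libraries is unknown. Title style moved in part with subset, since all 6 cDC2 and 2 migDC2 libraries have a plain numbered title and the other 4 migDC2 libraries a letter with the number. Plain-titled libraries reached a strongest signal of 234622 or more, against at most 70566 in the lettered ones, so signals were compared only as ranks within a list. The 2 plain-titled migDC2 libraries are 1 of each genotype, and no exact test of them against the 6 cDC2 libraries within genotype can give p below 0.125. Their kept peaks had median widths of 881 and 890 bp and covered 41.0 and 41.9 Mb. No cDC2 library exceeded 848 bp or 40.7 Mb. Lettered migDC2 libraries had 758 to 850 bp and 34.8 to 39.2 Mb. Gene starts held 24.7% and 24.9% of kept peaks in the plain pair and 24.0% to 24.5% in the lettered ones. The cDC2 range was 24.5% to 25.0%. The part of title style in these measures was not tested.

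The subsets were far apart over the whole map. Of 47935 regions with a median width of 797 bp, 23954 (49.97%) were called in all 12 libraries. Another 20876 had a call in 3 or more libraries and no call in 3 or more, and were tested by a two-sided exact conditional test stratified by genotype. Of these, 11477 (55.0%) passed at an adjusted p of 0.05 (Benjamini-Hochberg), with 6539 (31.3%) called more often and 4938 (23.7%) less often in migDC2. Most were complete contrasts: 4971 regions were called in 6 of 6 migDC2 and 0 of 6 cDC2 libraries, and 2951 in 0 of 6 migDC2 and 6 of 6 cDC2 libraries. Such regions have p = 0.005, the smallest that the 400 arrangements of this exact test can give, and an adjusted p of 0.0132, which holds for each complete contrast named below. The balance between directions rests on equal list length. With the full lists, migDC2 had 12545 regions called more often and 1368 called less often, so the share of called regions that were called more often was 57.0% at equal length and 90.2% in full lists. Each of the 24 lists of biology genes described below also had more gains and fewer losses in the full lists than at equal length.

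The regions that passed had calls in 6 against 0, 6 against 1 or 5 against 0 libraries of the subsets, so any 2 migDC2 libraries have the same direction as the whole group and the plain-titled pair is no separate check on title style. The contrast was counted within each genotype too. In Cre-positive mice, 6234 regions were called in 3 of 3 migDC2 and 0 of 3 cDC2 libraries, and in Cre-negative mice 5860 were; the 4971 common to both were 79.7% of the first set and 84.8% of the second. For the opposite contrast, the 2951 common regions were 65.6% of 4499 in Cre-positive and 69.1% of 4268 in Cre-negative mice. No region had opposite complete contrasts in the 2 genotypes. Pairs of libraries within a subset shared most regions, with a mean Jaccard similarity (shared regions over regions called in either) of 0.882 among migDC2 and 0.893 among cDC2 libraries, and 0.624 between the subsets. Within-subset similarity exceeded between-subset similarity by 0.264 (exact permutation within genotype, one-sided p = 0.005, the smallest possible).

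Gene starts made up 5.89% of the tested regions. Of regions called more often in migDC2, 3.18% lay within 1000 bp of a gene start, 54.7% in gene bodies and 30.3% within 50 kb of a gene; of those called less often, the shares were 4.96%, 49.7% and 35.1%. Regions called in all 12 libraries lay at gene starts in 34.7% of cases. Among 8370 genes with a tested region, 2523 had only regions called more often, 2211 only regions called less often, 970 both kinds and 2666 neither. Each region was given to a gene by distance, which does not show which gene it acts on. Covered length, a measure added after the data had been seen, was longer in migDC2 at 3048 of 16425 genes (18.6%) and shorter at 1982 (12.1%), by an exact permutation test within genotype with Benjamini-Hochberg adjustment. The median difference over all genes was -0.02 kb. An adjusted p of 0.0216 is the smallest seen in that test, and it applies to each covered length called below unless another is given. Apart from Ccr7, Ccl22, Il1r2 and Ifngr1, genes below were named for their counts or after their values were seen. A lack of overlap at them is therefore no separate result, and its share over all genes is not given here. With the full lists, 3919 genes were longer and 490 shorter.

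The marker genes given for migratory cells did not all point the same way. Ccr7, the receptor that guides dendritic cells to the node, had a covered length of 30.7, 31.9 and 34.9 kb in migDC2 (lowest, median and highest) and 8.80, 9.31 and 15.4 kb in cDC2. All migDC2 values lay above all cDC2 values, a difference of 21.6 kb. Of 12 regions given to Ccr7, 6 were called in all libraries, and all 6 had a higher signal percentile in migDC2. The widest, chr11:99130338-99153196, reaches from below the gene into it and stood at 99.99 or more in each migDC2 library, against 53.7 to 70.0 in cDC2. Another 3 of its 6 tested regions were called more often in migDC2, among them chr11:99127644-99128484 in 6 of 6 migDC2 and 0 of 6 cDC2 libraries. Ccl22, a chemokine that draws CCR4-bearing T cells, covered 12.2, 13.7 and 19.1 kb in migDC2 and 1.15, 1.51 and 2.29 kb in cDC2. The groups did not overlap, and 4 of its 6 tested regions were called more often in migDC2.
Il1r2, the decoy receptor that traps interleukin-1, went against its place as a migratory marker in these lists. The IL-1 list as a whole had gains at 11 (30.6%) and losses at 14 (38.9%) of 36 tested regions, against 31.3% and 23.7% of all tested regions. The full lists gave 20 and 12. The covered length of Il1r2 was 6.01, 7.99 and 9.32 kb in migDC2 and 25.3, 41.2 and 46.5 kb in cDC2, 31.7 kb shorter in migDC2. None of its 12 tested regions was called more often in migDC2 and 11 were called less often, for example chr1:40099093-40100967 in 0 of 6 migDC2 and 6 of 6 cDC2 libraries. Il1r1, the signalling receptor next to it, moved the other way, with 5 of 6 tested regions called more often and 6.81, 7.12 and 8.72 kb covered in migDC2 against 3.52, 4.21 and 5.26 kb in cDC2.

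**Figure D1:**
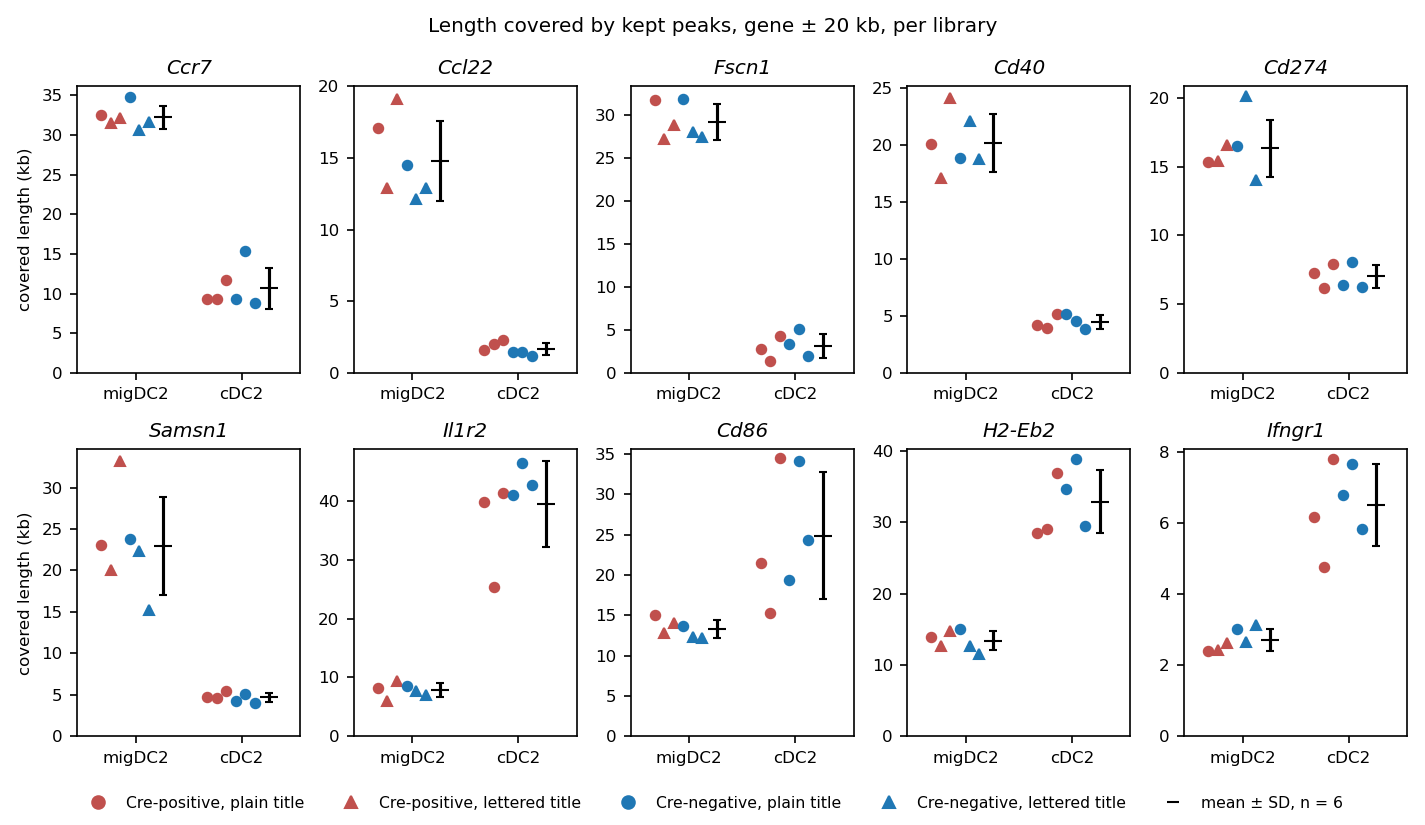
Kilobases covered by kept peaks within each of 10 genes and 20 kb on either side (vertical axes), with migDC2 libraries left of cDC2 libraries. Red points are Cre-positive and blue points Cre-negative libraries, circles have plain and triangles lettered titles, and black marks give mean ± SD (n = 6); Ccr7, Ccl22, Fscn1, Cd40, Cd274 and Samsn1 sit higher in every migDC2 library, and Il1r2, Cd86, H2-Eb2 and Ifngr1 lower.

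Genes known from mature dendritic cells carried the largest share of regions called more often in migDC2 among the 24 biology lists. Of 133 tested regions in this list, 89 (66.9%) were called more often and 3 less often, against 31.3% and 23.7% of all tested regions; 19 genes had only gains, 3 had both kinds and 2 neither. The median difference was 6 libraries for the list and -1 for all tested regions. By covered length, 24 of the 30 genes were longer and 1 shorter, against 18.6% and 12.1% of all genes. The list was chosen with results of these data known, so its count is a description. Samsn1, an adaptor protein of lymphocytes and dendritic cells, had 12 of 13 tested regions called more often and covered 15.3, 22.7 and 33.1 kb in migDC2 and 3.95, 4.68 and 5.40 kb in cDC2. Zfp366, the dendritic cell repressor DC-SCRIPT, had 11 of 17 tested regions called more often and 1 less often, with 15.3, 18.2 and 19.04 kb covered in migDC2 and 4.21, 5.43 and 6.05 kb in cDC2. Neither gene showed overlap between the groups.
Ankrd33b, an ankyrin repeat gene, covered 19.4, 21.4 and 43.2 kb in migDC2 and 3.06, 4.34 and 5.38 kb in cDC2, with 10 of 13 tested regions called more often; its highest migDC2 values, 37.8 and 43.2 kb, were those of the plain-titled libraries. Cacnb3, a calcium channel subunit, covered 23.2, 27.6 and 35.2 kb in migDC2 and 2.59, 3.34 and 4.76 kb in cDC2. Il15ra, which presents interleukin-15 to lymphocytes, covered 6.48, 7.46 and 8.20 kb in migDC2 and 1.87, 2.12 and 2.25 kb in cDC2. All 3 were longer in each migDC2 library than in any cDC2 library.

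Migration and cytoskeletal genes followed the same direction, with 41 of 95 tested regions (43.2%) called more often and 4 (4.21%) less often in migDC2. The shares of all tested regions were 31.3% and 23.7%. Fscn1, the actin-bundling protein fascin of dendrites, covered 27.2, 28.5 and 31.9 kb in migDC2 and 1.43, 3.06 and 5.15 kb in cDC2, the second longest gain of all genes. Its broad region at chr5:142967249-142984627 was called in all 12 libraries but stood at the 99.7th, 99.97th and 99.98th percentile in migDC2 and at 15.4, 22.7 and 32.0 in cDC2. Arhgap31, which switches off the small GTPases RAC1 and CDC42, had 7 of 9 tested regions called more often and covered 21.3, 27.3 and 29.6 kb in migDC2 and 6.97, 7.99 and 10.3 kb in cDC2. For Dock10, an activator of small GTPases, 8 of 23 tested regions were called more often and 3 less often, and the covered length was 17.0, 20.3 and 23.7 kb in migDC2 against 10.2, 12.4 and 13.8 kb in cDC2. The 3 genes separated the subsets without overlap, but they were named for their counts, ranks or lengths.

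Chemokine ligands and receptors of inflamed tissue went in different directions. Of the ligands' 28 tested regions, 13 (46.4%) were gained and 4 (14.3%) lost in migDC2, that is, called more or less often. The shares of all tested regions were 31.3% and 23.7%. Ccl17, which shares the receptor CCR4 with Ccl22, covered 5.95, 7.93 and 8.76 kb in migDC2 and 3.13, 3.66 and 4.21 kb in cDC2. Ccl2, a monocyte-attracting chemokine, had 2 of 4 tested regions called more often, such as chr11:82011559-82012583 in 6 of 6 migDC2 and 0 of 6 cDC2 libraries, and 1 less often. The covered length of Ccl2, 3.12, 3.71 and 4.41 kb in migDC2 and 2.10, 2.77 and 3.89 kb in cDC2, overlapped between the groups and did not pass (adjusted p = 0.0804, exact permutation). Among 32 tested regions of chemokine and complement receptors other than Ccr7, 4 (12.5%) were gained and 12 (37.5%) lost in migDC2. The balance was 10 and 6 in the full lists. Members with only losses included the fractalkine receptor Cx3cr1 (1 of 4), Ccr2 (its 1 tested region) and the complement receptor C5ar1 (2 of 4). Cxcr5, the receptor that leads cells to B cell follicles, had 2 regions called less often and 1 more often. The gut-homing receptor Ccr9 had a start region called in 6 of 6 migDC2 and 0 of 6 cDC2 libraries, with weak peaks at percentiles of 0.627, 24.2 and 33.0 in migDC2, and another region called less often.

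Costimulatory genes split by member. The list had 34 of 79 tested regions (43.0%) called more often and 12 (15.2%) less often in migDC2, against 31.3% and 23.7% of all tested regions. Cd40, through which T cells license dendritic cells, had 7 of 8 tested regions called more often and covered 17.1, 19.5 and 24.2 kb in migDC2 and 3.84, 4.36 and 5.19 kb in cDC2. Cd274, which encodes the PD-1 ligand PD-L1, had 4 of 4 tested regions called more often and covered 14.0, 16.0 and 20.2 kb in migDC2 and 6.203, 6.82 and 8.04 kb in cDC2. Both genes were longer in every migDC2 library. Tnfsf4 (OX40 ligand), Tnfsf9 (4-1BB ligand) and Cd200 had 4 of 6, 3 of 4 and 3 of 4 tested regions called more often and none less often.
Cd86, the CD28 ligand whose surface level is a usual measure of maturity, went the other way. None of its 12 tested regions was called more often in migDC2 and 6 were called less often, and the covered length was 12.2, 13.3 and 14.99 kb in migDC2 and 15.3, 22.9 and 34.5 kb in cDC2. The groups did not overlap, though the gap between the highest migDC2 and the lowest cDC2 library was small beside the spread in cDC2. Within the gene, individual open regions diverged: chr16:36622124-36623930 was called in all 12 libraries and stood 38.3 percentile points higher in migDC2, and chr16:36655637-36656363 stood 40.3 points lower (a difference of -40.26), both past the rank test. Cd80, the other CD28 ligand, covered 9.78, 11.4 and 12.3 kb in migDC2 and 7.04, 11.1 and 14.9 kb in cDC2, with wide overlap. Cd83, a maturation marker that stabilises MHC class II and CD86 at the surface, was longer, with 33.2, 36.7 and 39.5 kb in migDC2 and 25.3, 28.5 and 33.0 kb in cDC2.

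Genes tied to tolerance had more gains than losses. Of 59 tested regions, migDC2 gained 31 (52.5%, against 31.3% of all tested regions) and lost 6 (10.2%, against 23.7%). With the 20000 strongest peaks it gained 17 and lost 11. Il2ra, the interleukin-2 receptor α chain CD25, had 5 of 6 tested regions called more often, and its covered length was 11.5, 13.3 and 15.7 kb in migDC2 and 3.77, 4.28 and 5.27 kb in cDC2. The region chr2:11690018-11691756 inside Il2ra had a signal percentile of 88.5, 92.0 and 95.0 in migDC2 and no kept peak in cDC2. Fas, the death receptor, covered 2.23, 2.42 and 3.05 kb in migDC2 and 0.902, 1.24 and 1.34 kb in cDC2. Il10, an inhibitory cytokine, covered 4.29, 5.71 and 7.31 kb in migDC2 and 2.91, 3.58 and 6.38 kb in cDC2, where the groups overlapped and the adjusted p of the exact permutation test was 0.0490. Havcr2, the inhibitory receptor TIM-3, and Il10ra each had 2 of 3 tested regions called less often.

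Among IFN-γ genes, Ifngr1 and the induced genes moved apart. The list of the receptor and its signalling genes had 16 of 43 tested regions (37.2%) called more often and 8 (18.6%) less often in migDC2. The shares of all tested regions were 31.3% and 23.7%. In the full lists the counts of this list were 30 and 2. Of its 13 genes, 5 had a longer and 1 a shorter covered length, against 18.6% and 12.1% of all genes. Neither of the 2 tested regions of Ifngr2, the other receptor chain, passed. Ifngr1, the ligand-binding chain of the receptor and the gene floxed in these mice, had 0 of 6 tested regions called more often and 5 called less often in migDC2. Its covered length was 2.40, 2.62 and 3.12 kb in migDC2 and 4.77, 6.48 and 7.80 kb in cDC2, with no overlap. The list of 30 IFN-γ-induced genes had 53 tested regions, held by 19 of the genes, with gains at 29 (54.7%) and losses at 7 (13.2%) in migDC2. By covered length, 16 of 28 genes were longer and 5 shorter, against the same 18.6% and 12.1% of all genes. Nlrc5, the activator of MHC class I genes, covered 11.5, 13.4 and 14.8 kb in migDC2 and 3.46, 4.37 and 6.07 kb in cDC2. Irf1, a transcription factor induced by interferon, covered 14.5, 17.1 and 23.4 kb in migDC2 and 6.77, 7.79 and 8.88 kb in cDC2. Both were longer in every migDC2 library. The separation of the subsets at these genes was present in Cre-positive and Cre-negative libraries alike, since every library of migDC2 lay on one side of every library of cDC2.
Type I interferon genes had no such balance: 4 of 21 tested regions were called more often and 7 less often, against 9 and 2 in the full lists. Rsad2, the antiviral enzyme viperin, covered 4.27, 5.12 and 5.93 kb in migDC2 and 2.30, 2.96 and 3.19 kb in cDC2. Ifih1, the RNA sensor MDA5, had 1 region called more often (chr2:62616594-62616991) and 2 called less often, with overlapping covered lengths of 2.40, 2.60 and 3.01 kb in migDC2 and 2.28, 2.56 and 2.83 kb in cDC2.

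MHC class II presentation genes went down at equal list length. Of 38 tested regions, migDC2 gained 4 (10.5%) and lost 23 (60.5%), against 31.3% and 23.7% of all tested regions. However, the full lists gave 9 and 7, and ranking the peaks by summit p at equal length gave 5 and 9. Of 18 genes, 10 had a shorter and 1 a longer covered length, against 12.1% and 18.6% of all genes. The median difference of the 18 was -3.25 kb. With the 20000 strongest peaks there were 4 gains and 5 losses, so the size of this count depends on the ranking and its direction on list length. The locus on chromosome 17 holds several of them side by side, whose windows share peaks. H2-Aa, the α chain of I-A, covered 18.2, 21.5 and 28.1 kb in migDC2 and 38.1, 39.6 and 40.7 kb in cDC2. H2-Ab1, its β chain, covered 15.3, 18.6 and 22.7 kb in migDC2 and 32.2, 33.0 and 33.7 kb in cDC2. H2-Eb2, an E β gene beside them, covered 11.5, 13.3 and 15.04 kb in migDC2 and 28.5, 32.1 and 38.9 kb in cDC2, and 5 of its 7 tested regions were called less often. None of these 3 genes showed overlap between the subsets.
H2-DMb1, a chain of the peptide exchange factor, covered 7.54, 8.79 and 10.4 kb in migDC2 and 11.2, 15.1 and 18.2 kb in cDC2. Cd74, the invariant chain, changed least among these, with 29.9, 31.8 and 33.0 kb in migDC2 and 33.3, 34.3 and 36.6 kb in cDC2. Marchf1 had 3 of 7 tested regions called less often and none more often. Ciita, the master regulator of the class II genes, did not follow: 3 of its 5 tested regions were called more often and 1 less often, and its covered length of 10.7, 12.3 and 14.3 kb in migDC2 and 9.33, 11.996 and 14.9 kb in cDC2 overlapped. MHC class I genes had 8 of 24 tested regions (33.3%) called more often and 2 (8.33%) less often, against 31.3% and 23.7% of all tested regions. H2-K1, a class I heavy chain gene, had 1 region called less often (chr17:34001906-34002454, in 0 of 6 migDC2 and 6 of 6 cDC2 libraries) and 1 more often, while the covered length of H2-K1 overlapped between the groups. At H2-Q6, a class I gene with near-identical neighbours, whose reads cannot be placed with certainty, the 2 plain-titled migDC2 libraries covered 20.4 and 22.98 kb and the 4 lettered ones 4.06 to 4.53 kb, against 7.91 to 9.96 kb in cDC2.

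**Figure D2:**
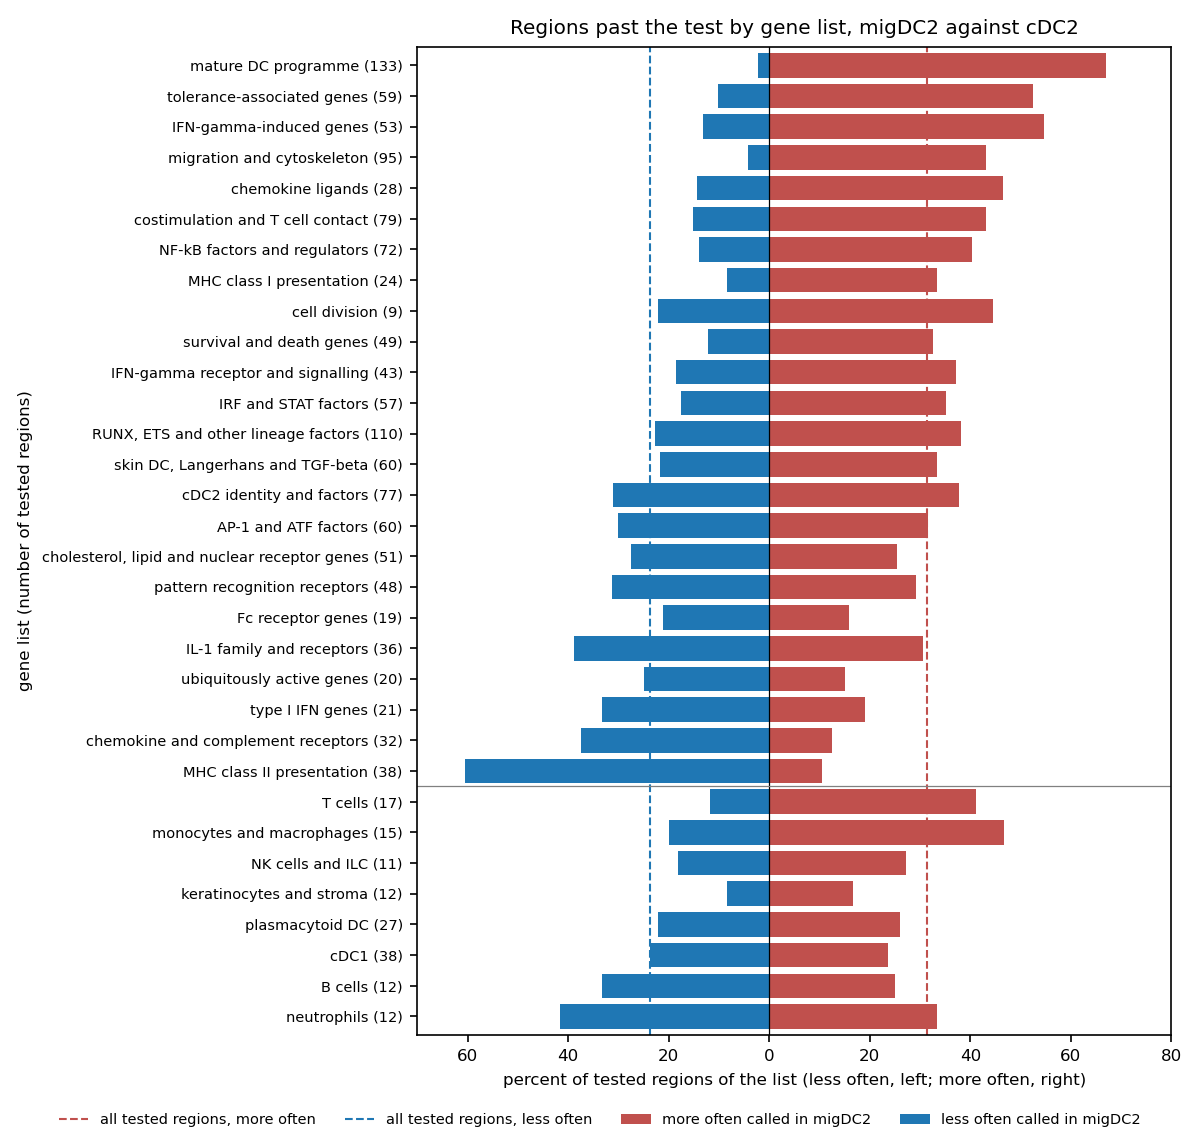
Percent of each gene list's tested regions (horizontal axis) called more often in migDC2 (red, to the right) or less often (blue, to the left), with the shares of all tested regions, 31.3% and 23.7%, as dashed lines. Genes of the mature dendritic cell programme reach 66.9% on the right, and MHC class II genes have more regions on the left (23 of 38) than on the right (4 of 38) at equal list length, against 7 and 9 in the full lists.

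Genes of cDC2 identity were mixed in both directions at equal list length. In migDC2, 29 of 77 tested regions (37.7%) were called more often and 24 (31.2%) less often, against 31.3% and 23.7% of all tested regions. The full lists gave 43 and 8. Zeb2, a repressor that shapes the cDC2 lineage, had 8 of 9 tested regions called more often and covered 8.27, 10.4 and 12.9 kb in migDC2 and 4.27, 5.96 and 7.16 kb in cDC2. Irf4, a factor that cDC2 need for migration, covered 4.73, 6.59 and 8.22 kb in migDC2 and 3.66, 4.09 and 5.83 kb in cDC2, a difference that passed although the groups overlapped. Surface markers were mixed as well. Mgl2, a lectin of cDC2, and Csf1r, the receptor for macrophage growth factor, each had 1 region called more often and none less often. Clec10a, another lectin, had covered lengths with a median of 0 and a highest value of 0.419 kb in migDC2 and 0.654, 0.697 and 0.709 kb in cDC2. Cd209a and Clec4a4 each lost their 1 tested region. Sirpa, a receptor shared by the cDC2 branch, covered 9.37, 11.4 and 11.9 kb in migDC2 and 9.12, 10.2 and 11.4 kb in cDC2, and did not pass (adjusted p = 0.202, exact permutation). Notch2, a receptor needed by part of the splenic cDC2, had 3 of 6 tested regions called less often, and Rbpj, which relays Notch signals, had 5 of 7 called more often and 1 less often.
At Itgam, covered length was 6.47, 8.25 and 9.63 kb in migDC2 and 7.39, 11.9 and 16.9 kb in cDC2 (adjusted p = 0.0360, exact permutation). The source label names CD11b for both subsets. These values overlapped and moved with genotype as well. They averaged 9.38 ± 0.365 kb in Cre-positive and 6.93 ± 0.550 kb in Cre-negative migDC2, and 15.7 ± 1.18 kb in Cre-positive and 8.44 ± 0.977 kb in Cre-negative cDC2 (SD, n = 3 each). Itgam lies in the integrin cluster that also holds Itgax, whose promoter drives Cre, and the part of the transgene in this result was not tested.

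The transcription factor lists were described by their own counts, and no test compared them. For AP-1 and ATF factors, 19 of 60 tested regions (31.7%) were called more often, near the share of all tested regions, and 18 less often; the counts were 24 and 3 in the full lists and 5 and 10 with the 20000 strongest peaks. Covered length was longer at 1 gene and shorter at 6. Fos, an immediate early factor, had 3 regions called more often and 4 less often. Its covered length was 11.5, 13.4 and 14.2 kb in migDC2 and 14.5, 17.4 and 21.2 kb in cDC2. In the full lists the length of Fos did not pass (adjusted p = 0.221, exact permutation). Bach2, a repressor related to AP-1, had 5 of 13 tested regions called more often and 3 less often, with overlapping covered lengths. NF-κB factors and regulators had 29 of 72 tested regions (40.3%) called more often and 10 (13.9%) less often, against 31.3% and 23.7% of all tested regions. By covered length, 10 of 23 genes were longer and none shorter, against 18.6% and 12.1% of all genes. Tnfaip3, the inhibitor A20, covered 26.3, 30.9 and 32.0 kb in migDC2 and 11.5, 14.0 and 17.2 kb in cDC2, without overlap. Nfkb1, the p105 precursor, had 3 regions called more often and 3 less often, and its covered length overlapped.
Interferon regulatory and STAT factors had gains at 20 (35.1%) and losses at 10 (17.5%) of 57 tested regions, against 31.3% and 23.7% of all tested regions. Irf2, a partner and antagonist of Irf1, had 4 of each kind among 13. RUNX, ETS and other lineage factors had gains at 42 (38.2%) and losses at 25 (22.7%) of 110 tested regions. Among them Etv6, an ETS-family repressor, had 17 of 29 tested regions called more often and 4 less often. Bcl11a, a factor of lymphoid and plasmacytoid cells, had 3 regions called more often, such as chr11:24208706-24209470, and 4 less often. Its covered length was shorter, 8.31, 8.60 and 9.35 kb in migDC2 and 9.22, 9.76 and 11.5 kb in cDC2 (adjusted p = 0.0360, exact permutation). In the full lists the length of Bcl11a did not pass (adjusted p = 0.896, exact permutation). Nr4a1, an orphan nuclear receptor of antigen-activated cells, lost 3 of 3 tested regions and covered 15.4, 16.6 and 21.3 kb in migDC2 and 23.5, 29.3 and 34.6 kb in cDC2.

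Sensors and scavenger receptors showed no common direction at equal list length, with 14 of 48 tested regions (29.2%) called more often and 15 (31.25%) less often. The full lists gave 17 and 2. Tlr2, which senses bacterial lipoproteins, and the inflammasome sensor Nlrp3 had 2 of 4 and 2 of 2 tested regions called less often. Nlrp3 covered 4.93, 6.09 and 6.87 kb in migDC2 and 7.86, 9.51 and 10.3 kb in cDC2. Mrc1, the mannose receptor, had 3 of 6 tested regions called more often, and Nod2, a sensor of bacterial cell wall fragments, 3 of 5 with 1 less often. Skin and TGF-β genes had 20 of 60 tested regions (33.3%) called more often and 13 (21.7%) less often (36 and 3 in the full lists). These shares were near those of all tested regions, 31.3% and 23.7%. Smad3, a transducer of TGF-β, had 3 regions called more often, such as chr9:63802819-63803691, and 4 less often, and a shorter covered length, 9.33, 9.76 and 11.0 kb in migDC2 and 10.9, 11.3 and 13.5 kb in cDC2, which turned to a difference of 0.75 kb in the other direction with flanks of 50 kb. Tgfbr2, a TGF-β receptor chain, had 3 of 5 tested regions called more often and 1 less often. Survival and death genes gained 16 (32.7%) and lost 6 (12.2%) of 49 tested regions, against 31.3% and 23.7% of all tested regions. Bcl2l1, the survival factor BCL-XL, was longer, with 8.85, 10.6 and 12.4 kb in migDC2 and 6.29, 7.96 and 9.10 kb in cDC2, and Bcl2, a related survival factor, had 2 regions called more often and 2 less often of 8 tested, with covered lengths that overlapped.

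Over all genes, some single genes held many gains or losses. Rftn1, which encodes the lipid raft protein raftlin, had the most regions called more often, 19 of 23 tested, and covered 39.6, 43.8 and 46.8 kb in migDC2 and 16.2, 18.1 and 21.2 kb in cDC2. Atxn1, a transcriptional repressor, had 14 of 15 and covered 15.4, 15.9 and 20.5 kb in migDC2 and 2.498, 3.14 and 3.58 kb in cDC2. Rad51b, a recombination protein, had 13 of 17 with 1 less often, and Arhgap26, which acts on small GTPases, 15 of 22 with 4 less often. After Il1r2, the most losses lay in the homeobox gene Cux1 (9 of 13 tested regions, with 1 gain). Gse1 lost 9 of 16 with 2 gains, and the sorting nexin gene Snx29 lost 9 of 21 with 3 gains. The covered length of Gse1 did not pass (adjusted p = 0.195, exact permutation). Cux1 covered 11.0, 11.4 and 12.1 kb in migDC2 and 13.9, 15.4 and 17.7 kb in cDC2. The chromatin remodelling subunit gene Mta3 covered 2.39, 4.45 and 6.37 kb in migDC2 and 6.74, 10.5 and 13.0 kb in cDC2. In the full lists the lengths of Cux1 and Mta3 did not pass (adjusted p = 0.348 and 0.166, exact permutation). Long genes have more regions to gain or lose, so these counts rank genes only with their totals.
By covered length, the longest gain was at Clic4, a chloride intracellular channel protein gene, with 39.5, 58.4 and 65.6 kb in migDC2 and 12.3, 15.6 and 22.5 kb in cDC2. Pik3r1, the regulatory subunit of PI3-kinase, covered 24.7, 37.3 and 53.7 kb in migDC2 and 7.74, 11.4 and 17.9 kb in cDC2. Vps37b, a subunit of the ESCRT-I sorting complex, was among the largest losses, with 9.09, 9.59 and 12.9 kb in migDC2 and 27.4, 32.8 and 47.0 kb in cDC2. Mideas covered 16.9, 20.2 and 24.2 kb in migDC2 and 35.0, 49.9 and 61.2 kb in cDC2. Sfi1, Gm40363 and Gm40365 also headed the losses, but their values moved with title style: Sfi1 covered 2.65, 3.62 and 40.5 kb in migDC2, the highest values being those of the plain-titled libraries, and 51.5, 59.0 and 60.2 kb in cDC2. The part of title style in these 3 losses was not tested.

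**Figure D3:**
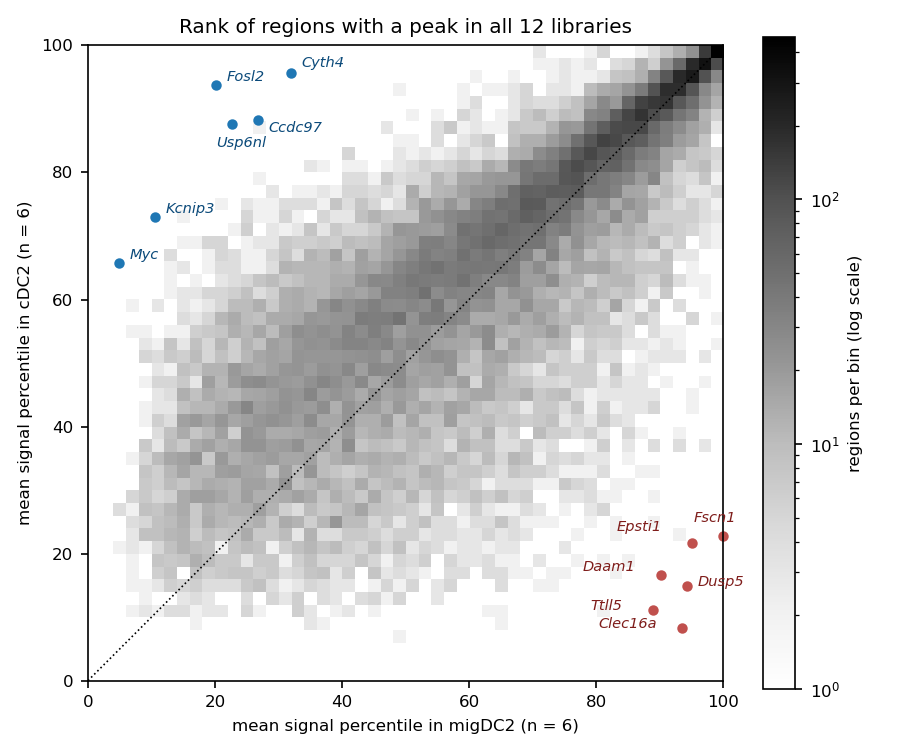
Mean signal percentile in migDC2 (horizontal axis) against cDC2 (vertical axis) for the 23954 regions called in all 12 libraries, shaded by the number of regions per bin on a log scale, with 12 labelled genes. Points below the diagonal rank higher in migDC2; Fscn1 and Clec16a lie at the lower right, and Myc and Fosl2 at the upper left.

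Regions open in every library differed too, by rank. Of the 23954, 15657 (65.4%) passed an exact permutation test within genotype with Benjamini-Hochberg adjustment, 5427 (22.7%) with a higher and 10230 (42.7%) with a lower percentile in migDC2. The median difference over all of them was -2.30 percentile points, so lower ranks in migDC2 are the common background. Gene start regions were higher in 13.7% and lower in 46.5% of cases, against 27.3% and 40.3% for distal regions. The median shift was not larger at gene starts, with -2.14 points there, -2.48 at distal regions and -2.55 in gene bodies. No region passed a test of whether the subset difference depended on genotype (exact permutation, smallest adjusted p = 1; 395 regions, 1.649%, had an unadjusted p under 0.05). The 12 regions with the largest differences each had an adjusted p of 0.00993.
Clec16a, a regulator of mitophagy near Ciita, held a region at percentiles of 92.0, 93.7 and 94.8 in migDC2 and 0.0182, 5.17 and 23.7 in cDC2. Dusp5, a phosphatase that acts on ERK, had a region at 76.2, 97.98 and 99.7 in migDC2 and 3.20, 9.08 and 38.0 in cDC2. Epsti1, an interferon-responsive gene, had one at 93.6, 95.3 and 96.6 in migDC2 and 4.80, 22.8 and 34.2 in cDC2. Regions at Ttll5, a tubulin glutamylase, and Daam1, an actin-assembling formin, showed the same separation. In the other direction, Fosl2, an AP-1 factor, had a region at 6.90, 21.7 and 27.4 in migDC2 and 86.1, 95.7 and 98.7 in cDC2. A distal region of Myc, a driver of growth, stood at 0.554, 3.65 and 10.3 in migDC2 and 62.0, 65.8 and 70.4 in cDC2. The start of Cyth4, an activator of ARF GTPases, stood at 20.4, 32.7 and 47.6 in migDC2 and 93.6, 94.8 and 98.3 in cDC2. Usp6nl, Kcnip3 and Ccdc97 completed this group, and none of the 12 regions overlapped between the subsets. The 12 were chosen for the largest differences, so this lack of overlap is no separate result.

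The same regions were looked up in libraries that had no part in choosing them. All germline migDC2 and migDC1 libraries have lettered titles and all cDC1 libraries plain ones, while DN migDC has both styles. The part of title style in the shares below was not tested. In 4 germline migDC2 libraries, 69.0% and 91.4% of the regions called more often had a peak in the Ifngr1-/- mice and 78.1% and 82.1% in the WT mice, against 1.01% to 9.09% of the regions called less often. Of these lists, 3 held fewer peaks than the 38455 kept elsewhere (32649, 35894 and 36597), and the lowest shares, 69.0% and 1.01%, are those of the shortest list. Of the 38 named regions called more often, 33 were called in 4 of 4 germline migDC2 libraries, and all 13 named regions called less often were missing from all 4. Each named region was the one of its gene with the largest difference in libraries with a call. These counts therefore do not stand for all called regions. Migratory cells of the other branch, migDC1, held 79.8% to 82.8% of the regions called more often and 6.82% to 7.78% of those called less often (4 libraries). In 6 libraries of resident cDC1, the shares were 9.04% to 13.6% and 51.9% to 57.5%. The third migratory subset, DN migDC, held 60.3% to 83.6% and 11.6% to 22.5% (6 libraries).
The comparison of migDC1 with cDC1 shares no library with that of migDC2 and cDC2. In it, migDC1 libraries are all lettered and cDC1 libraries all plain, so title style and subset cannot be told apart. By the same test on these regions, 14929 were tested there, and 54.1% passed, with gains in migDC1 at 5282 (35.4%) and losses at 2793 (18.7%). As shares of all regions called, gains overlapped more than losses. Gained in both branches were 3777 regions, 57.8% of the gains in migDC2 and 71.5% of those in migDC1. Lost in both were 1220, 24.7% and 43.7%. The regions come from the migDC2 and cDC2 lists alone. Gains and losses of migDC1 elsewhere are therefore missing from the totals behind the migDC1 shares. Only 4619 of the migDC2 gains and 2663 of the migDC2 losses were tested in migDC1 against cDC1. Gains were also more common than losses among all regions tested there, so these shares have unlike backgrounds. Only 3 regions in each direction were opposite. Of the 2951 complete losses, 682 were missing from all migDC1 and all cDC1 libraries, as were 386 of the 4971 complete gains.

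**Figure D4:**
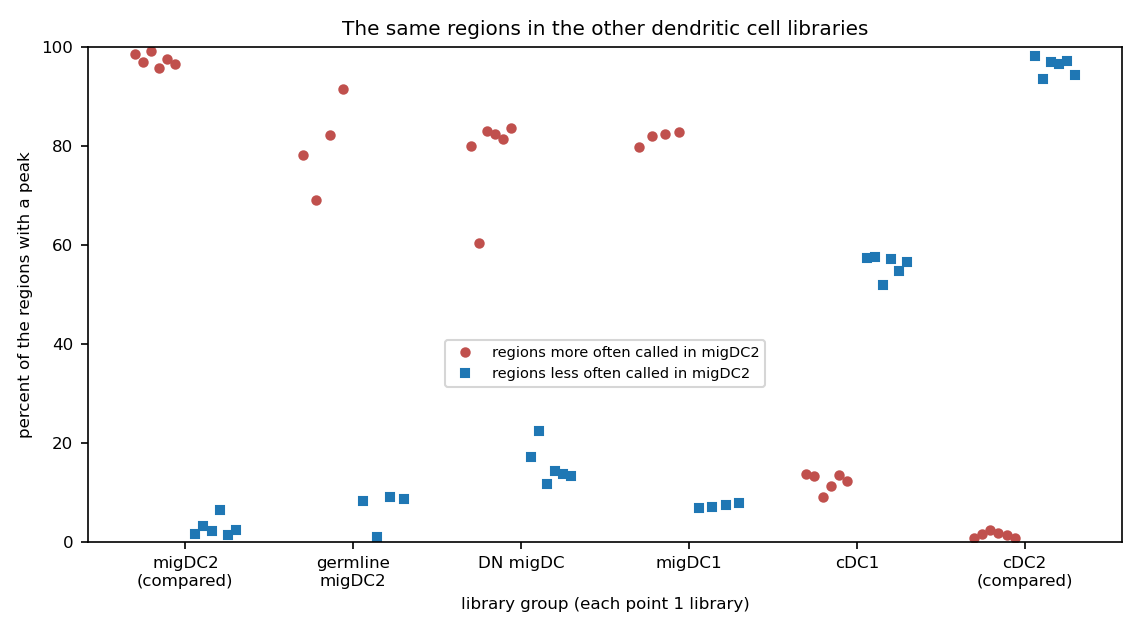
Percent of the regions called more often (red circles) and less often (blue squares) in migDC2 that had a kept peak in each library (vertical axis), by subset, with migratory groups left of resident ones. The migDC2 and cDC2 points of the floxed cohort chose the regions; germline migDC2, DN migDC and migDC1 lie between 60.3% and 91.4% for the regions called more often, and cDC1 between 9.04% and 13.6%.

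Start windows of 300 bases, from 250 before to 50 after the start, were searched for the 6 motifs given above. Of 118 windows at starts called more often, 157 at starts called less often and all 21045 windows in the table, the AP-1 letters were in 11.0%, 7.64% and 7.04%. The PU.1 letters were in 16.1%, 28.0% and 13.3%, and the ETS letters in 9.32%, 17.2% and 21.3%. NF-κB letters were in 65.3%, 65.6% and 57.5%, a loose pattern found in most windows. IRF letters were in 4.24%, 3.18% and 3.38%, and RUNX letters in 18.6%, 21.02% and 14.7%. All windows include 9664 without a region, of which 4134 (42.8%) held the NF-κB letters and 967 the AP-1 letters. Windows at starts called in all 12 libraries held NF-κB letters in 70.6% and ETS letters in 35.6%, more than either changed class. They held AP-1 letters in 4.29%, PU.1 in 13.1%, IRF in 2.93% and RUNX in 11.8%, less than either changed class. No test compared these shares. The PU.1 and ETS patterns overlap in their GGAAG letters.

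Markers of other cells were counted in the same way. Over 8 lists of 103 genes marking lymphoid cells (T, B and NK cells with ILC), monocytes, neutrophils, plasmacytoid cells, cDC1, and keratinocytes with stroma, migDC2 gained 42 (29.2%) and lost 32 (22.2%) of 144 tested regions. Both shares were near those of all tested regions, 31.3% and 23.7%. Of the regions of these lists, 69.5% to 74.9% were called in migDC2 libraries and 65.5% to 73.1% in cDC2 libraries. Over all regions the shares were 75.3% to 78.4% and 74.1% to 77.7%. For 27 of the genes no region existed. These were 4 of 14 T cell, 4 of 11 B cell, 7 of 13 NK cell and ILC and 4 of 12 neutrophil genes. The others were 2 of 11 plasmacytoid, 1 of 12 cDC1 and 5 of 15 keratinocyte and stroma genes. All 15 monocyte and macrophage genes had a region. Between lists, 7 of 17 T cell regions were called more often and 2 less often, and 7 of 15 monocyte regions more often and 3 less often. Ubiquitously active genes had 3 of 20 tested regions called more often and 5 less often.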

How the data were processed

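The 12 migDC2 and cDC2 lists of the floxed cohort are narrowPeak files, 1 per library, called by the authors, so replicates were not pooled. The submitters' processing notes name Bowtie2, deepTools, Genrich and mm10; the sources used here give no versions or settings and do not say how read ends were treated for the Tn5 offset. The deposited peak signal starts just above 200 in every list and was used only for ranks; the deposited −log10 p at the summit broke ties and gave 1 alternative ranking. No list gives counts, so no counting error can be stated.

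Only peaks on the 19 autosomes and X entered. Regions were at least 100 bp wide and covered by at least 3 lists; a call needed a peak overlapping 50% of the region or of the peak. Regions went to 1 of 21631 protein-coding RefSeq genes of GRCm38.p6, by gene start within 1000 bp, then gene body, then distance within 50 kb; 17274 genes had a start in the table, and 4 of 530 listed symbols had no match. Tests were exact, two-sided unless stated, stratified by genotype and adjusted by the Benjamini-Hochberg method at 0.05 over all features tested. They were tested on simulated data.

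The comparison, the 32 gene lists and the members were chosen with earlier results of these data known. Covered length and its 12 leading genes were added after the data were seen. Named genes were Ccr7, Ccl22, Il1r2 and Ifngr1, up to 2 genes per biology list and 6 per direction with the most called regions, and 6 regions per direction by rank; other genes named by covered length or single regions were chosen after their values were seen, and a few listed genes are not reported here. Alternatives covered list length, ranking, overlap, consensus size, the filter on calls, genotype strata, gene start distance, flanks and each library left out. Python 3.11.15, numpy 2.4.6, pandas 2.3.3 and matplotlib 3.10.9 were used.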

Additional observations from a re-analysis of the deposited data

Results flagged for a closer look

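Of 110 groups of 6 values examined, 3 held a library whose gap to its neighbour was above Dixon's 95% critical value for 6 samples, where chance alone gives about 1 in 20 groups. The percent of kept peaks at gene starts was lowest in Cre-negative cDC2 library 1, at 24.5378%, while the other cDC2 libraries lay closer together. The covered length of Il1r2 was lowest among cDC2 in Cre-positive library 2, at 25.348 kb, still above every migDC2 library. Atxn1 was highest among migDC2 in Cre-positive library 1, a plain-titled library, at 20.466 kb. None of these 3 values turned the direction of its comparison.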

How the results depend on the processing

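List length was the setting that mattered most. With full lists, the share of peaks at gene starts differed by -4.50 points (adjusted p = 0.0133, exact permutation), 12545 regions were called more often and 1368 less often, 490 genes had a shorter covered length, the covered total was 8.06 Mb larger in migDC2 (exact permutation p = 0.04) and the median peak width turned to -58 bp, against 76.5 bp at equal length. With the 20000 strongest peaks, 5474 regions were called, 3024 more often and 2450 less often, 8090 regions passed the rank test, 2840 higher and 5250 lower, and 1927 genes were longer. Without flanks, a setting chosen after seeing the data, 1258 genes were shorter. The cause of these shifts was not tested. The other planned settings kept the totals of called regions between 9870 and 11477.

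Leaving out each library in turn gave 11900 to 13028 called regions, a difference of 53.4 to 99.3 bp in peak width and of -0.58 to -0.38 points in the percent of kept peaks at gene starts, and 1264 to 2259 genes with a shorter covered length. That last count was 1264 without migDC2 Cre-positive library 2 and 1315 without migDC2 Cre-negative library 2, against 1982. Smad3 reversed with flanks of 50 kb (0.75 kb, against -1.90 kb). Among named regions, 0 reversed; those of Ccr7, Zeb2, Fos, Etv6 and Sgms1 no longer passed in full lists, those of Il1r2, Dock10, Samsn1, Mrc1, Bcl11a, Nr4a1, Fcgr2b and Cux1 at 20000 peaks, and those of Samsn1 and H2-Eb2 when ranked by summit p. Covered length no longer passed at Cd86, Ifngr1, Fos, Smad3 and Cux1 with 20000 peaks. In full lists it no longer passed at Fos, Bcl11a, Smad3, Cux1, Snx29, Sgms1 and Mta3. It also no longer passed at Fos, Bcl11a and Smad3 without flanks, and at Fos, Bcl11a and Bcl2l1 with flanks of 50 kb. Under leave-one-out it was lost for some libraries at Etv6, Bcl11a, Smad3, Cd86 and Bcl2l1.

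No paired analysis was possible because the labels carry no replicate numbers shared by the subsets. Presence of a peak is a threshold on signal, a missing peak is not closed chromatin, depth is unknown, and no exact test within 1 genotype can go below p = 0.1. Title style and subset overlap in part, and a batch behind the title style cannot be told apart from subset in the 4 lettered libraries.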

Other observations

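Cholesterol, lipid and nuclear receptor genes, which mature dendritic cells are known to regulate, had 13 of 51 tested regions called more often and 14 less often in migDC2 at equal list length (30 and 7 in the full lists). Abcg1, a cholesterol exporter, covered 9.78, 10.7 and 11.5 kb in migDC2 and 8.76, 11.3 and 12.1 kb in cDC2. These values overlapped. Fc receptor genes had 3 of 19 tested regions (15.8%) called more often and 4 (21.1%) less often (5 and 2 in the full lists). Fcgr2b, the inhibitory IgG receptor, had 1 region called more often (chr1:170986817-170987379, in 6 of 6 migDC2 and 0 of 6 cDC2 libraries) and 2 called less often. Fcer2a, the low-affinity IgE receptor, had its 1 tested region (chr8:3685056-3686010) called in 6 of 6 migDC2 and 0 of 6 cDC2 libraries. Cell division genes had 4 of 9 tested regions (44.4%) called more often and 2 (22.2%) less often.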
